A study of Mus musculus with 6 samples.

Results

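The transcriptome of the wild-type growth plate was described from the 3 libraries labelled WT, out of 6 libraries in the study, each made from growth plate cartilage of mouse embryos at E18.5. The members were the samples whose label gave the genotype WT. Of 15803 genes in the table, 14549 had at least 1 read in the 3 libraries, and the other 1254 had none. The study deletes Hnrnpk, which encodes an RNA-binding protein, from chondrocytes. In the WT embryos, Hnrnpk fl/fl, loxP sites flank exons 4 to 7 of the gene and no Cre is present, so that the floxed alleles are intact, and littermates that also carry Col2a1-Cre form the CKO group, which was not analysed here. The labels call the material growth plate chondrocytes, whereas the methods describe RNA of the cartilage tissue, in which the other cells of the piece are also sampled. How many embryos, bones or growth plates went into 1 library is not stated in the sources used here, and the spread between libraries may therefore hold technical as well as biological differences. Hnrnpk itself stood at 842, 955 and 944 CPM (reads of a gene per 1000000 reads of the library) in WT 1, WT 2 and WT 3, the order in which values by library are given throughout.

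The growth plate is the cartilage at the ends of a growing long bone. Its chondrocytes pass from a resting zone, which supplies cells, through columns of proliferating cells to prehypertrophic and hypertrophic cells, whose mineralizing matrix is replaced by bone. The cells secrete type II collagen fibrils, with types IX and XI on and in them, and the large proteoglycan aggrecan, whose sulfated chains hold water, and they do so in a tissue that has no blood vessels of its own.

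The libraries held 1379674, 1332542 and 1183743 reads in genes, with a read in 12997, 12956 and 13013 genes. At this depth 1 read equals 0.725 to 0.845 CPM, and a gene with no read in a library could still stand at up to 2.17 to 2.53 CPM, the value of 3 reads. WT 3 stood apart from the others. Over the 2859 genes whose mean reached 50 CPM, the correlation of log2(CPM + 1) was 0.986 between WT 1 and WT 2, 0.929 between WT 1 and WT 3, and 0.933 between WT 2 and WT 3, given as a description across genes, which are not independent replicates and share the depth of their library. Several genes of the Y chromosome split the libraries another way. Ddx3y, an RNA helicase gene of the Y chromosome, had 0, 74 and 88 reads, and Eif2s3y, a translation factor gene of the same chromosome, had 0, 55 and 66 reads, so that WT 1 lacked them and WT 2 and WT 3 had both. Uty and Kdm5d, which encode histone demethylases, had 0, 11 and 9 and 1, 5 and 7 reads, whereas Gm47283 did not follow this split with 19, 6 and 23 reads, and the other 3 genes of this chromosome in the table had at most 1 read. The methods state that embryos of both sexes were used and that their sex was not resolved, and Xist is not among the genes of the table analysed here.

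The chondrocyte identity given by the labels was checked against 18 marker genes, and all 18 had a mean of at least 1 CPM. So had 12054 of all 15803 genes, and this count alone therefore says little on identity. The median level was 725 CPM over the 18 markers and 6.6 CPM over all genes. The summed level of the markers was 29453, 30596 and 38642 CPM, highest in WT 3. Sox9, the transcription factor that specifies chondrocytes, stood at 68.1, 81.8 and 102 CPM, and its partners Sox6 and Sox5 stood at 23.2, 28.5 and 26.2 and at 7.25, 12.8 and 11.8 CPM. Col2a1, which encodes the chain of type II collagen, stood at 2720.2, 3133 and 3944 CPM (3266 ± 623 CPM, mean ± SD, n = 3), and Acan, which encodes the aggrecan core protein, at 482, 477 and 746 CPM. Both were highest in WT 3, and WT 1 and WT 2 lay close together. Per length, as TPM (CPM divided by exon length and scaled to 1000000 per library), Col2a1 stood at 804 ± 163 TPM, Acan at 173 ± 49.2 TPM and Sox9 at 46.2 ± 9.97 TPM.

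Markers of the zones were read at very different depths. Ucma, a secreted protein gene of the upper resting zone, was abundant at 1141, 1075 and 2223 CPM, whereas Sfrp5, another resting zone marker, was at 6.52, 7.5 and 7.6 CPM. Pthlh, which encodes the hormone-like peptide that holds chondrocytes in proliferation, stood at 2.9, 6.0 and 63.4 CPM, high in WT 3 alone. Fgfr3, the receptor that restrains proliferation of these cells, stood at 132, 125 and 168 CPM. Of the prehypertrophic markers, Panx3 and Pth1r, the receptor of the Pthlh peptide, stood at 65.2, 68.3 and 33.8 and at 58.7, 51.8 and 55.8 CPM, but Ihh, the hedgehog signal of this zone, had only 0, 0 and 2 reads and its receptor and target Ptch1 2, 4 and 1 reads.

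Col10a1, the collagen that defines hypertrophic chondrocytes, stood at 13, 15.8 and 43.9 CPM and, per length, at 17.7 ± 12.7 TPM, below the TPM of Col2a1. Mmp13, the collagenase of late hypertrophic cells and osteoblasts, stood at 257, 260.4 and 650.5 CPM, and Spp1, which encodes osteopontin, at 1037, 1095 and 3769 CPM. WT 3 was the highest library for Col10a1, Mmp13 and Spp1, as it was for 41.9% of all genes past 50 CPM. Other genes of mineralization did not follow this order, since Ibsp stood at 129, 82.5 and 109 CPM and Alpl, the alkaline phosphatase gene, at 29.7, 24 and 16.9 CPM. The 11 hypertrophic and mineralization markers summed to 4238, 4349 and 9756 CPM, most of it Mgp and Spp1.

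Markers of other cell types were near the limit of detection for blood and vessels, and measurable for muscle, fat, perichondrium and bone. Of the keratinocyte markers, only Krt10 had more than a few reads. The 4 globin genes in the table summed to 0.725, 5.25 and 0.845 CPM, and the 7 endothelial genes to 8.7, 17.3 and 14.4 CPM, with no read of Cdh5 or Tek. Ptprc, the pan-leukocyte marker, had no read in any library, and Csf1r, the macrophage growth factor receptor, had 0, 0 and 5 reads, although the 12 macrophage and osteoclast genes summed to 159, 164 and 397 CPM mostly from Lyz2 and Ctsk. The 20 skeletal muscle genes summed to 144, 99.1 and 389 CPM, with Mylpf, a myosin light chain, as the gene with the most reads at 34.8, 17.3 and 80.3 CPM. The 5 adipocyte genes summed to 194, 176 and 461 CPM, of which Fabp4 gave 90.6, 75 and 289 and Adipoq, which encodes adiponectin, 34.1, 25.5 and 58.3. In each of these 3 groups WT 3 was the highest. The 14 perichondrium, tendon and fibroblast genes summed to 4157.5, 4811 and 6583 CPM. The 5 articular surface genes summed to 32.6, 42.8 and 111 CPM, mostly from Gdf5. Gdf5, a joint signal, stood at 22.5, 33 and 94.6 CPM. Tnmd, the tendon and perichondrial relative of Cnmd, stood at 34.8, 36.8 and 146 CPM. Both genes were highest in WT 3, but not all members of these lists were. Prg4, of the articular surface list, had 8, 4 and 5 reads. Scx and Pdgfra, of the other list, had 2, 0 and 0 and 12, 8 and 8 reads. The 9 osteoblast genes in the table summed to 932, 1174 and 1679 CPM, mostly from Col1a1 and Col1a2, which fibrous tissue also makes, and from Smpd3, a sphingomyelinase gene of bone and cartilage, at 133, 149 and 335 CPM. Bglap2, an osteocalcin gene, stood at 50.7, 69 and 30.4 CPM and Sp7, the osteoblast transcription factor, at 2.17, 3.0 and 3.38 CPM, while Dmp1 had 0, 0 and 2 reads and Phex none. The 6 keratinocyte genes in the table summed to 42, 32.3 and 21.1 CPM, of which Krt10, a keratin of the outer skin layers, gave 39.1, 29.3 and 16.9, lowest in WT 3. Sbsn had 4, 2 and 4 reads, Krt1 and Krt15 had at most 1 read in a library, and Dmkn and Krtdap had none. The sum thus rests mostly on 1 gene, and the list as a set does not show skin cells. The part that these cells play in the levels below was not tested, and in tissue RNA fewer cells of a type and less RNA per cell cannot be told apart.

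Genes of limb position were present for both pairs of limbs. Tbx5, a forelimb gene, stood at 6.52, 7.5 and 8.45 CPM, and the hindlimb genes Pitx1 and Tbx4 at 24.6, 25.5 and 55.8 and at 5.07, 6.0 and 1.69 CPM. Hoxa9 and Hoxa10, which pattern the upper limb segments, stood at 82.6, 60.8 and 49 and at 52.2, 41.3 and 29.6 CPM, lowest in WT 3.

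The gene with the most reads was Cnmd, which encodes chondromodulin, a cartilage glycoprotein that inhibits vessel growth (chromosome 14, 79637690 to 79662170, minus strand, GRCm38). Its level was 9498, 9533 and 9818 CPM, that is 0.962% ± 0.0176 of all reads (SD, n = 3), and it differed by a ratio of only 1.03 between the highest and the lowest library. Serpinh1, the collagen-specific chaperone of the endoplasmic reticulum, was the other secretory gene near the top at 7506, 8153 and 6871 CPM. Matn1, which encodes the cartilage matrix protein matrilin, stood at 6283, 6410.3 and 7830.2 CPM (chromosome 4, 130944385 to 130955475, plus strand). These genes lay among transcripts of ribosomal proteins, which took 17 of the 25 first ranks, led by Rps19 at 9109, 8638 and 7299 CPM.

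The remaining leading genes were of mixed function. Mest, an imprinted gene expressed from the paternal allele in growing embryonic tissue, stood at 8116, 6524 and 6550.4 CPM, highest in WT 1. Tpt1, a translationally controlled growth-related protein gene, stood at 7433, 6043 and 5458 CPM. Itm2a, which encodes a membrane protein of early chondrocytes, and Sparc, which encodes the calcium-binding matrix protein osteonectin, stood at 4492, 5327 and 8007 and at 3628, 4026 and 8565 CPM, and for both the WT 3 value lay well above the others.

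**Figure D1:**
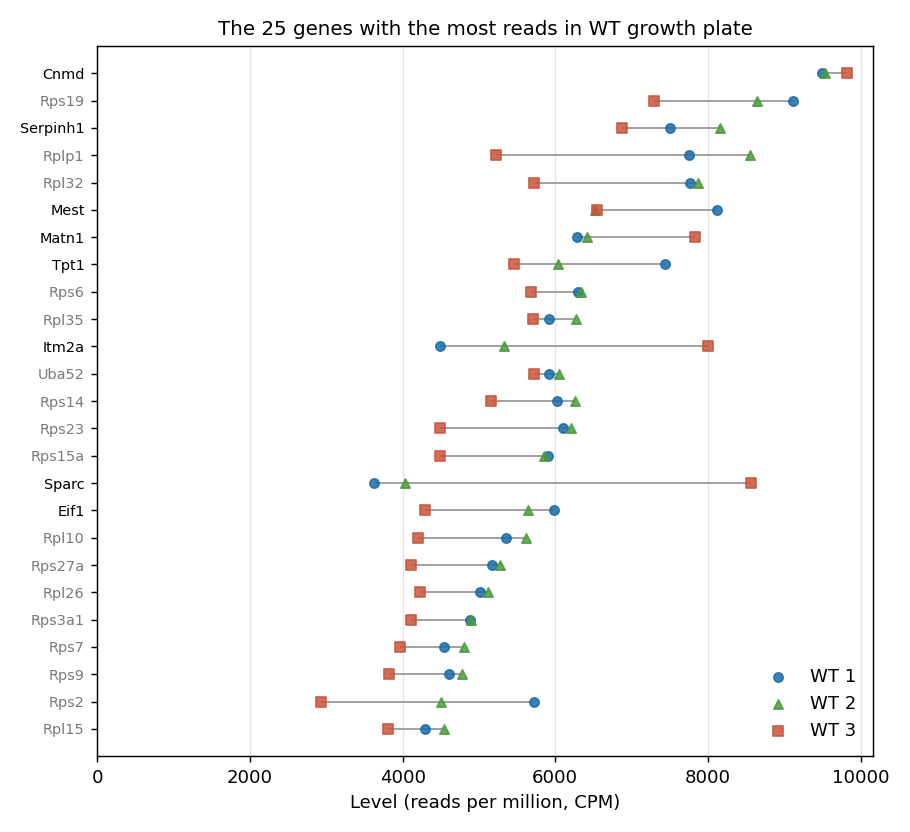
Level in CPM (x axis, linear from 0) of the 25 genes with the most reads, with a point for each of WT 1, WT 2 and WT 3 and a line from the lowest to the highest; ribosomal protein genes are named in grey. Cnmd leads at 9498, 9533 and 9818 CPM with its points close together, whereas the points of Sparc spread from 3628 to 8565 CPM, and WT 3 is the lowest library for most ribosomal protein genes.

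Reads were concentrated in few genes. The 10 leading genes of each library held 7.42% ± 0.191 of its reads, the 100 leading genes 33.9% ± 1.57, and the 1000 leading genes 71.6% ± 0.839. On the mean of the 3 libraries 285 genes made up 50% of the reads and 3235 genes made up 90%. By library, 271, 266 and 307 genes made up 50%, so that WT 3 was the least concentrated. The median level over 12054 genes whose mean reached 1 CPM was 13.2 CPM, and 155 genes passed 1000 CPM.

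By gene class, cytosolic ribosomal proteins held the largest share. Their 82 genes took 21.6, 22 and 17.4% of the reads (20.3% ± 2.55, SD, n = 3), lowest in WT 3. The 82 nuclear genes of oxidative phosphorylation took 3.59, 3.5 and 3.55% and were the steadiest of the larger classes. Genes of translation factors took 2.33% ± 0.139 and glycolysis genes 1.32% ± 0.112. The 13 protein-coding genes of mitochondrial DNA took only 0.213% ± 0.00995, and the 586 entries whose identifiers begin with ONT and carry no gene name took 2.47% ± 0.266. One of these, ONT.2886, ranked 28 of all genes at 4218, 4448 and 3462 CPM, and what it encodes is not given in the table.

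The 192 genes of the extracellular matrix and its proteases took 5.99, 6.33 and 8.78% of the reads, with 95% Wilson intervals of 5.95 to 6.03, 6.29 to 6.37 and 8.73 to 8.83, which cover counting error only. No pair of these intervals overlapped, but at this depth the intervals are narrow, and those of the ribosomal proteins did not overlap either. The share of the matrix genes in WT 3 was 1.47 times that in WT 1, the lowest library. Within this total, matrix glycoproteins took 2.72% ± 0.772, small chondrocyte proteins 1.65% ± 0.232, collagens 1.4% ± 0.352, proteoglycans 0.702% ± 0.127, and proteases with their inhibitors 0.558% ± 0.0537. Each of these 5 classes was highest in WT 3. The genes that fold, hydroxylate and crosslink collagen took 1.76, 1.77 and 1.88%, a share larger than that of the collagens in each of the 3 libraries, and Serpinh1 gave 41.7% of it.

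**Figure D2:**
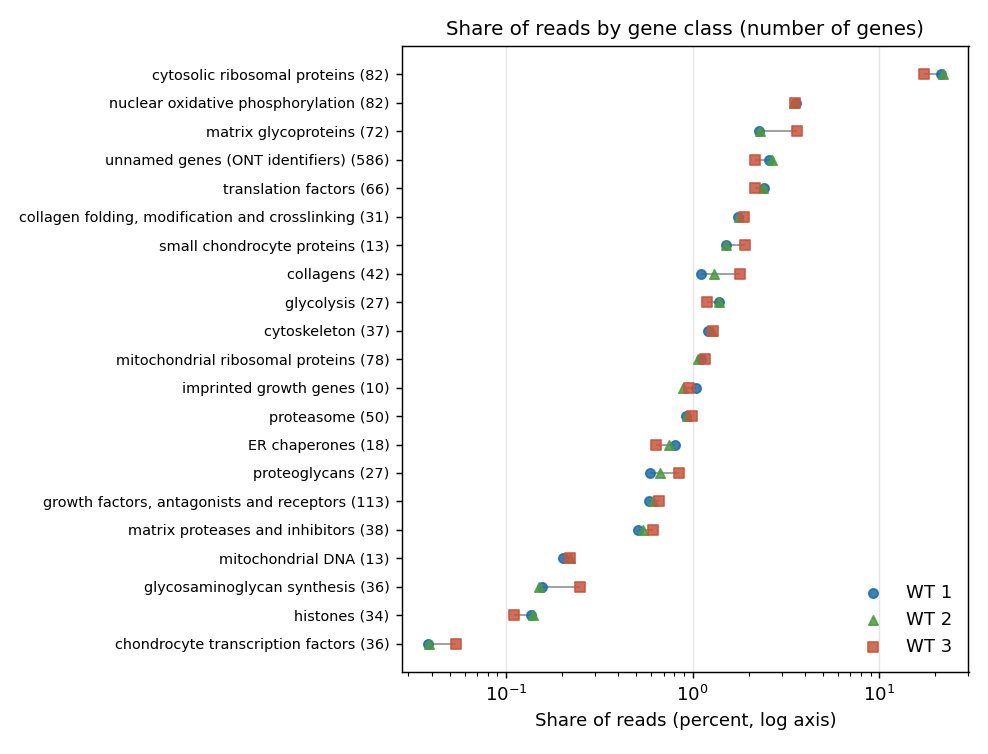
Share of reads in percent (x axis, log scale) of 21 gene classes, with the number of genes in brackets and a point for each WT library. Ribosomal proteins stand at 21.6, 22 and 17.4%, well above the collagens at 1.11, 1.31 and 1.79%, and WT 3 lies to the right of the other libraries for the matrix classes.

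Levels of different genes were compared per length, as TPM computed from CPM and the summed exon length of each gene. On this scale Rplp1 and Rpl32, both of the ribosome, came first at 32610.0 ± 7593 TPM and 16772 ± 2679 TPM (SD, n = 3), followed by Cnmd at 11855 ± 355 TPM. Of the 25 genes of highest TPM, 16 encoded ribosomal proteins and 4 were matrix genes, namely Cnmd, Matn1, Snorc and Mgp. Division by length may distort the order here, which was not tested. Across genes, which differ in expression as well as in length, reads did not increase with gene length. The 2312 shortest genes with at least 1 CPM had a median of 28.4 CPM and the 2310 longest a median of 8.93 CPM, and over 11547 genes Spearman's rho of level against exon length was -0.20, a description across genes. Col2a1, a long gene, ranked 206 per length against 42 by reads.

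Several genes commonly used as references were read at very low levels. Gapdh stood at 17.4, 14.3 and 7.6 CPM, Actb at 31.2, 43.5 and 24.5 CPM, and Ppia, which encodes cyclophilin A, had 2, 1 and 0 reads. The tubulin genes Tuba1a, Tuba1b and Tuba1c stood at 1.45, 3.0 and 5.07, at 5.07, 7.5 and 9.29 and at 1.45, 1.5 and 0 CPM. In the transcripts of GENCODE M21, 174 other genes matched Gapdh over at least 300 bases at 90% identity or more, 32 matched Ppia and 14 matched each of the 3 tubulin genes. Near-identical copies did not go with low levels throughout, since Rps2 had 64 such matches and 5727, 4508 and 2929 CPM, and Actb had 3. How reads that fit several genes were counted is not given in the sources used here, and the levels of all these genes are uncertain. Levels also varied among the 7 references with no such match. Of these B2m stood at 748, 765 and 818 CPM, Hprt at 251, 308 and 173 CPM, Gusb at 62.3, 72 and 74.3 CPM and Polr2a at 20.3, 21.8 and 22 CPM. Tbp, Tfrc and Sdha were lower, at 14.5, 14.3 and 18.6, at 13.8, 12 and 19.4 and at 6.52, 6.0 and 5.07 CPM.

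The fibrillar collagens were led by the cartilage types. After Col2a1, Col11a1 stood at 1935, 2441 and 3455 CPM and Col11a2 at 628, 678 and 1097 CPM, both of type XI collagen, which sets fibril diameter. Col3a1, a collagen of fibrous tissue such as perichondrium, stood at 1689.5, 2116 and 2915 CPM, whereas the bone and tendon chains Col1a1 and Col1a2 stood at 269.6, 359 and 541 and at 469.7, 586 and 759 CPM. The type IX chains, which decorate cartilage fibrils, were led by Col9a1 at 1559, 1858 and 2197 CPM, beside Col9a2 and Col9a3 at 488, 468 and 726 and at 302, 313 and 473 CPM. All 8 fibrillar collagen genes past 50 CPM were highest in WT 3, as were 41.9% of all genes past 50 CPM. Per length, Col9a1 stood at 839.9 ± 152 TPM and Col2a1 at 804 ± 163 TPM. With the length of the principal transcript they stood at 674 and 884 TPM, so that their order depends on the length used.

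Among proteoglycans, Bgn and Dcn, small leucine-rich proteoglycans that bind collagen and growth factors, stood at 1297, 1524 and 1897 and at 1025, 1078 and 1312 CPM. Hapln1, the link protein that ties aggrecan to hyaluronan, stood at 847, 966 and 1189 CPM and 386 ± 71.3 TPM, above Acan per length. Epyc and Lum, of the same leucine-rich family, were highest in WT 3 at 481, 535 and 928 and at 499, 482 and 862 CPM. Ogn went the other way, at 396, 550.1 and 221 CPM, lowest in WT 3.

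The matrix glycoproteins held the most reads of the matrix. Beside Matn1 and Sparc, Mgp, an inhibitor of cartilage calcification, stood at 2731, 2816 and 5079.6 CPM, and Matn3, the matrilin most restricted to growth plate cartilage, at 369, 392 and 1105 CPM. Comp, a pentameric protein that binds fibrils, stood at 1642, 1253 and 1809 CPM, lowest in WT 2. Pcolce, an enhancer of procollagen cleavage, was among the steadiest at 1925, 1950.4 and 2009.7 CPM. Fn1, fibronectin, stood at 929, 1071 and 1496 CPM. Not all members were higher in WT 3, since Smoc2 and Thbs1 stood at 507, 352 and 277 and at 316, 362 and 226 CPM, and 8 of the 26 matrix glycoprotein genes past 50 CPM were lowest there, against 16 highest. WT 3 was the lowest library for 39.6% of all genes past 50 CPM.

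Small secreted or membrane proteins of chondrocytes were prominent per length. Snorc, a transmembrane proteoglycan gene of cartilage, reached 7553 ± 2018 TPM from 2099.8, 1990.2 and 3097 CPM. Mia, a small secreted cartilage protein, stood at 1062, 1125 and 1474 CPM, Scrg1, a secreted peptide gene linked to chondrogenesis, at 472, 451 and 1664 CPM, and Susd5 at 96.4, 98.3 and 339 CPM. Scrg1 and Susd5 were highest in WT 3, with ratios to the lowest library of 3.69 and 3.51. Of the 192 matrix genes, 10 held 57.3% of the class reads, from Cnmd with 13.7% to Spp1 with 2.8%.

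**Figure D3:**
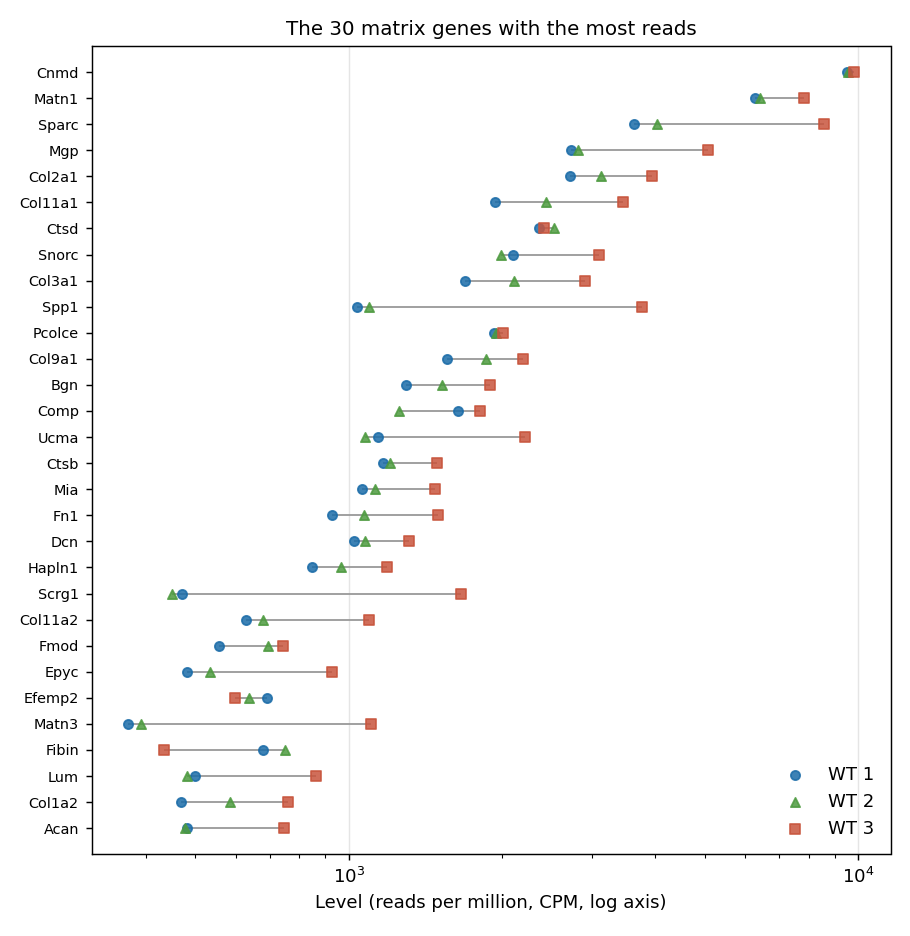
Level in CPM (x axis, log scale) of the 30 matrix genes with the most reads, with a point for each WT library and a line from the lowest to the highest. Cnmd, Pcolce and Ctsd keep their 3 points together, whereas Sparc, Spp1, Scrg1 and Matn3 show WT 3 far above the other libraries.

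The enzymes that make collagen and glycosaminoglycan were measured beside their products. P4hb and P4ha1, subunits of prolyl hydroxylase, stood at 3454, 3128 and 3389 and at 765, 797 and 727 CPM, and Ppib, the prolyl isomerase of the endoplasmic reticulum, at 1651, 1639 and 2017 CPM. P3h4, a partner of the lysyl hydroxylase of collagen, was highest in WT 3 at 42, 47.3 and 334 CPM. For sulfated chains, Papss2, which makes the sulfate donor, stood at 354, 331 and 645 CPM, Slc26a2, the sulfate transporter, at 71, 57.8 and 175 CPM, Ugdh, which makes glucuronic acid for the chains, at 212, 215 and 383 CPM, and Chst12, a chondroitin sulfotransferase, at 58.7, 48 and 150.4 CPM. All 4 were highest in WT 3. Of the 9 glycosaminoglycan genes past 50 CPM, 7 were highest and 1 lowest in WT 3, where 41.9% and 39.6% of all genes were highest and lowest. Chaperones of general secretion did not share this order, as Hspa5, also known as BiP, stood at 1700.4, 1664 and 1051 CPM.

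Among proteases and inhibitors, the lysosomal cathepsins Ctsd and Ctsb had the most reads at 2363, 2531 and 2419 and at 1168, 1208 and 1489 CPM. Timp1, an inhibitor of matrix metalloproteinases, stood at 300.1, 311 and 413 CPM, and Mmp2, a gelatinase, at 233, 207 and 177 CPM. Mmp3, a stromelysin, stood at 3.62, 5.25 and 60.8 CPM, and the aggrecanases Adamts4 and Adamts5 at 2.9, 6.0 and 10.1 and at 1.45, 5.25 and 9.29 CPM. Mmp9, the gelatinase of osteoclasts at the cartilage border, had 0, 0 and 2 reads.

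Regulators were read at low levels. Of 36 chondrocyte transcription factors in the table, 32 had a mean of at least 1 CPM and only Sox9 passed 50 CPM. Of all 15803 genes, 12054 reached 1 CPM and 2859 reached 50 CPM. The median over the list was 7.56 CPM, near the 6.6 CPM over all genes. Runx2, which drives hypertrophy and bone formation, had 5, 1 and 3 reads, and Hif1a, the oxygen-responsive factor needed for survival of chondrocytes, stood at 19.6, 19.5 and 26.2 CPM. Foxa3 and Sox8 stood at 10.9, 15.8 and 45.6 and at 8.7, 6.0 and 34.6 CPM, with WT 3 above the others for both. These values rest on few reads, 15, 21 and 54 for Foxa3 and 12, 8 and 41 for Sox8.

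Secreted growth factors were led by Igf2, the fetal insulin-like growth factor, at 1674, 1829 and 1784 CPM, with little spread. Cxcl12, a chemokine, stood at 776, 639 and 668 CPM, Fstl1, a secreted modulator of bone morphogenetic protein signals, at 389, 459 and 563 CPM, and Frzb, a Wnt antagonist of cartilage, at 136, 149 and 154 CPM. Igf1 stood at 35.5, 42.8 and 126 CPM, highest in WT 3, and per length at 15.7 ± 11.8 TPM against 699.6 ± 34.7 TPM for Igf2, and Igfbp5, a binding protein of these factors, was lowest there at 207, 295 and 96.3 CPM. Of the 19 growth factor and antagonist genes past 50 CPM, 8 (42.1%, beside 7.07% of all genes past 50 CPM) had a ratio of at least 2 between the highest and the lowest library. Among these, Cxcl14, Gdf5, Igf1 and Tnfrsf11b lay below 50 CPM in WT 1 and WT 2. They reached that mean only through WT 3, which favours such a ratio and raises the share. None of the 6 growth factor receptors past 50 CPM had such a ratio, a number too small to tell from the share over all genes. Of those, Fgfr2 stood at 65.2, 66.8 and 73.5 CPM, Tgfbr2 at 66.7, 54 and 59.1 CPM and Smo, the transducer of hedgehog signals, at 96.4, 74.3 and 60.8 CPM, and the median ratio of the 6 genes was 1.19 against 1.29 over all 2859 genes.

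Imprinted growth genes were well read. Beside Mest and Igf2, Dlk1 stood at 896, 824 and 1284 CPM, Grb10 at 404, 429 and 493 CPM and Cdkn1c, a brake of the cell cycle, at 175, 181 and 149 CPM. None of the 9 genes past 50 CPM had a ratio of 2, and their median ratio was 1.25, near that of all genes (1.29). Of the genes of proliferation, Cdk1, the kinase of mitotic entry, stood at 153, 166 and 159 CPM and Pcna, the sliding clamp of replication, at 88.4, 92.3 and 108 CPM. None of 9 had a ratio of 2 and their median ratio was 1.32. With 9 genes each, these counts cannot be told from the 7.07% of all genes.

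Glycolysis, the main energy source of avascular cartilage, was read mostly through Eno1 and Ldha at 3689, 3778 and 2971 and at 3639, 3427 and 3131 CPM. Gapdh, whose level is uncertain as described above, gave only 17.4, 14.3 and 7.6 CPM. Ldha, Eno1 and Pgk1 also had 13, 6 and 4 near-identical matches in other genes. The levels of these genes, the share of the glycolysis class and the counts by library below are uncertain to that extent. Pgk1 stood at 1205, 1162 and 662 CPM and Aldoc at 75.4, 71.3 and 27.9 CPM, and 10 of the 13 glycolysis genes past 50 CPM were lowest in WT 3, beside 39.6% of all genes. Genes induced by low oxygen divided in the same direction, with Bnip3, a mitophagy receptor, at 863, 852 and 359.9 CPM, Ero1l, an oxidase of the endoplasmic reticulum, at 409.5, 329 and 166 CPM and Car9, a carbonic anhydrase, at 16.7, 18 and 3.38 CPM, each lowest in WT 3. Of the 8 genes of this list past 50 CPM, 6 were lowest and 2 highest in WT 3, where 39.6% and 41.9% of all genes were lowest and highest. Ldha and Pgk1 belong to this list and to the glycolysis list and are lowest in WT 3. The counts of the lists therefore repeat one another in part. Vegfa, the vessel growth factor, stood at 5.8, 12 and 8.45 CPM. The 4 genes of the p53 response past 50 CPM were lowest in WT 3, again beside 39.6% of all genes, among them Cdkn1a, which encodes the cell cycle inhibitor p21, at 475, 455 and 251 CPM, and Bax, which promotes cell death, at 472, 430.0 and 324 CPM.

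Promoter sequences of RefSeq (GRCm38.p6) were searched on both strands over the 250 bases before each start for the letters TATAAA of a TATA box, for CCAAT, and for the letters GGGCGG of a GC box. Of the 59 promoters found for 48 of the 68 matrix genes past 50 CPM, 16.9% held TATAAA, against 4.41% of the 68 promoters of ribosomal protein genes, 6.38% of the 11679 promoters of genes with at least 1 CPM and 12.4% of all 32851 promoters. GGGCGG stood in 54.2% of the matrix promoters, 58.2% of those of genes with at least 1 CPM and 32.7% of all, and CCAAT in 25.4%, 35.4% and 33.8%. With the whole match between 45 and 16 bases before the start on the strand of the gene, where a TATA box lies, TATAAA stood in 1 of the 59 matrix promoters (1.69%), in 1.01% of those of genes with at least 1 CPM and in 2.14% of all. These matches are a description of letters in a window. The 60 bases around the match are shown for Spp1, Mmp13 and Ecm1 (a secreted matrix glycoprotein), as examples of matrix genes past 50 CPM that hold TATAAA, given in capitals, near to or far from the start. They lie at chr5:104434873-104434932, plus strand, at chr9:7272454-7272513, plus strand and at chr3:95739570-95739629, minus strand, and the first base of the match lay 211, 16 and 27 bases before the listed start.
Spp1: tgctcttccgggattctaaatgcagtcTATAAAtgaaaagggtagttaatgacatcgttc
Mmp13: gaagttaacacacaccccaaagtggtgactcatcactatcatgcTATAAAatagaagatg
Ecm1: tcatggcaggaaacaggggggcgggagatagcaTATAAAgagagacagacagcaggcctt

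The libraries were then compared gene by gene. Among the 2859 genes whose mean reached 50 CPM, 202 (7.07%) had a highest library at least 2 times as high as the lowest. The median ratio over all 2859 genes was 1.29, and 76.6% of them had a ratio under 1.5. WT 3 was the highest library for 128 of the 202 genes (4.48% of those tested) and the lowest for 73 (2.55%), whereas WT 1 was the highest for 42 (1.47%) and WT 2 for 32 (1.12%). WT 1 was the lowest for 60 (2.1%) and WT 2 for 69 (2.41%). A floor on the mean also lets a gene pass through 1 high library alone, which favours a large ratio. With TMM scaling 187 genes passed, of which WT 3 was highest for 103 and lowest for 83. The biological coefficient of variation, the spread beyond counting error estimated by edgeR from the recovered reads, was 19.5% over the 3 libraries, 22.3% without WT 1, 23.1% without WT 2 and 7.82% without WT 3. A chi-square test of equal shares between libraries, which compares these libraries and no conditions, gave an adjusted p below 0.05 for 1261 of the 2859 genes, including all 202. The 202 were picked by their ratio in the same reads. At this depth a ratio of 2 nearly ensures such a p, so that their inclusion adds no support. The span of 44 of the 202 genes overlaps another protein-coding gene in GENCODE M21, and whether the counting used strand is not given in the sources used here.

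**Figure D4:**
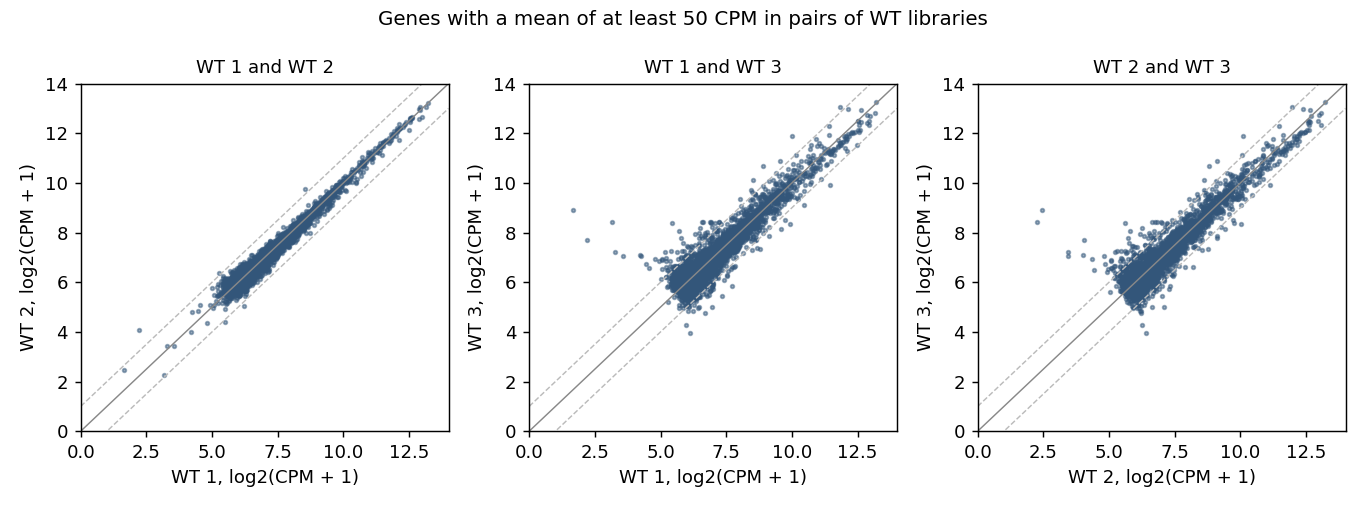
Levels of the 2859 genes past 50 CPM in each pair of WT libraries, as log2(CPM + 1) on both axes, with a line of equality and dashed lines at a ratio of 2. WT 1 and WT 2 hold nearly all genes between the dashed lines, with 7 at or beyond a ratio of 2, against 152 for WT 1 and WT 3 and 150 for WT 2 and WT 3.

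WT 1 and WT 2 differed by a ratio of 2 or more in 7 of the 2859 genes. The one with the most reads was Rgp1, a membrane trafficking gene, at 371, 869 and 337 CPM, high in WT 2. Msmp, which overlaps Rgp1 on the opposite strand, stood at 37.7, 81 and 35.5 CPM, also high in WT 2, so that reads of the pair may not be told apart. Slc25a1, the mitochondrial citrate carrier, and Ide, which encodes the insulin-degrading enzyme, were lower in WT 2 than in WT 1 at 44.2, 20.3 and 88.7 and at 72.5, 32.3 and 48.2 CPM. The other 3, Fxyd2, Ccl2 and Saa3, owed their mean to WT 3. WT 1 and WT 2 differed by more than sampling noise, since the chi-square per gene was 2.06 over 7551 genes with at least 20 reads in the pair, and 174 of those genes had an adjusted p below 0.05.

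The genes of highest ratio were nearly all high in WT 3. Fxyd2, a modulator of the sodium pump, stood at 2.17, 4.5 and 482 CPM, with 3, 6 and 571 reads, and the chemokines Ccl2 and Ccl7, which attract monocytes, at 7.97, 3.75 and 344 and at 17.4, 15 and 136 CPM. Saa3, an acute phase protein, stood at 3.62, 15.8 and 206 CPM, Cxcl14, another chemokine, at 10.9, 9.76 and 131 CPM, and F13a1, a transglutaminase subunit of clotting factor XIII, at 8.7, 9.76 and 146 CPM. For each of them both WT 1 and WT 2 lay far below WT 3, although for Fxyd2, Ccl2 and Saa3 they also differed from one another by a ratio of at least 2. Mfap4, a microfibril protein, stood at 18.1, 27 and 133 CPM, Scd1, a fatty acid desaturase, at 26.8, 19.5 and 120.0 CPM, and Lyz2, lysozyme of myeloid cells, at 51.5, 54.8 and 270.3 CPM. Of the 15 genes of highest ratio, Nrip2 and Gm9780 were instead lowest in WT 3, at 68.1, 84 and 14.4 and at 124, 134 and 31.3 CPM. Kansl2, Slc25a1 and Nrep were highest in WT 3, with ratios of 5.06, 4.38 and 4.23. Of the genes named here as high in WT 3, all but Lyz2 and Nrep lay below 50 CPM in WT 1 and WT 2. They reached that mean only through WT 3, so that they had to differ between libraries.

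Matrix genes were among those that differed. Of 68 matrix genes past 50 CPM, 15 (22.1%, against 7.07% of all) had a ratio of at least 2, of which 13 were highest in WT 3 and 2 in WT 2. WT 3 was the highest library for 50 of the 68 and the lowest for 14, against 1199 and 1133 of all 2859 genes. The median difference of WT 3 from the mean of the other libraries, on the scale of log2(CPM + 1), was 0.38 over the matrix genes, 0.64 over the 8 fibrillar collagens and 0.77 over the 9 genes of glycosaminoglycan synthesis, beside 0.00 over all genes. These differences went with those of the marker sums of muscle and fat above, whose part in them was not tested.

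Genes of lipid synthesis, grouped after their values were seen, were higher in WT 3. All 18 of the listed sterol and fatty acid synthesis genes past 50 CPM were highest there, 11 of them with a ratio of at least 2 (beside 41.9% and 4.48% of all genes), counts that the choice of the list and the threshold on the mean favour. Acly, which makes cytosolic acetyl-CoA, stood at 119, 128 and 337 CPM, Scd2 at 103, 90.1 and 255 CPM and Fdps, of the sterol pathway, at 107, 131 and 257 CPM. Of 10 chemokine and acute phase genes past 50 CPM, a list also made after the values were seen, 7 had a ratio of at least 2 with WT 3 highest, beside 4.48% of all genes. These 7 lay below 50 CPM in WT 1 and WT 2 and reached that mean only through WT 3, so that they had to differ. Cxcl5 and Cxcl1, which attract neutrophils, were in the list but under the floor at 5.8, 15 and 98 and at 1.45, 9.76 and 73.5 CPM, whereas Il6, Il1b and Tnf had no read in any library.

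Genes lower in WT 3 included several of high level. Bsg, which encodes the chaperone of lactate transporters, stood at 2797, 2211 and 963 CPM, Cdsn, which encodes the skin adhesion protein corneodesmosin, at 986, 1040.1 and 325 CPM, Fam162a, a gene induced by low oxygen, at 1418, 1046 and 555 CPM, and Hmgn2, a nucleosome-binding protein gene, at 770.5, 689.7 and 279.6 CPM. Ndufa4l2, a respiratory chain relative induced by low oxygen that overlaps Shmt2, stood at 442, 434 and 162 CPM. Of the keratins, skin genes like Cdsn, Krt10 had 54, 39 and 20 reads, lowest in WT 3 as well, and Krt1 and Krt15 had 0, 1 and 1 and 0, 1 and 0 reads. Ddit3 and Trib3, of the response to unfolded protein, stood at 357, 368 and 156 and at 351, 352 and 203 CPM, although Atf4, their activator, was even at 606, 648 and 622 CPM. The list of unfolded protein and amino acid response genes did not share this direction. Of its 15 genes past 50 CPM, 7 were highest and 6 lowest in WT 3, beside 41.9% and 39.6% of all genes. Plac9a and Plac9b, whose sequences are near copies, stood at 212, 157 and 56.6 and at 162, 129 and 43.1 CPM, and how reads were divided between them is uncertain. The 77 ribosomal protein genes past 50 CPM had a median difference of -0.29 for WT 3, and none of them had a ratio of 2, beside 7.07% of all genes.

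**Figure D5:**
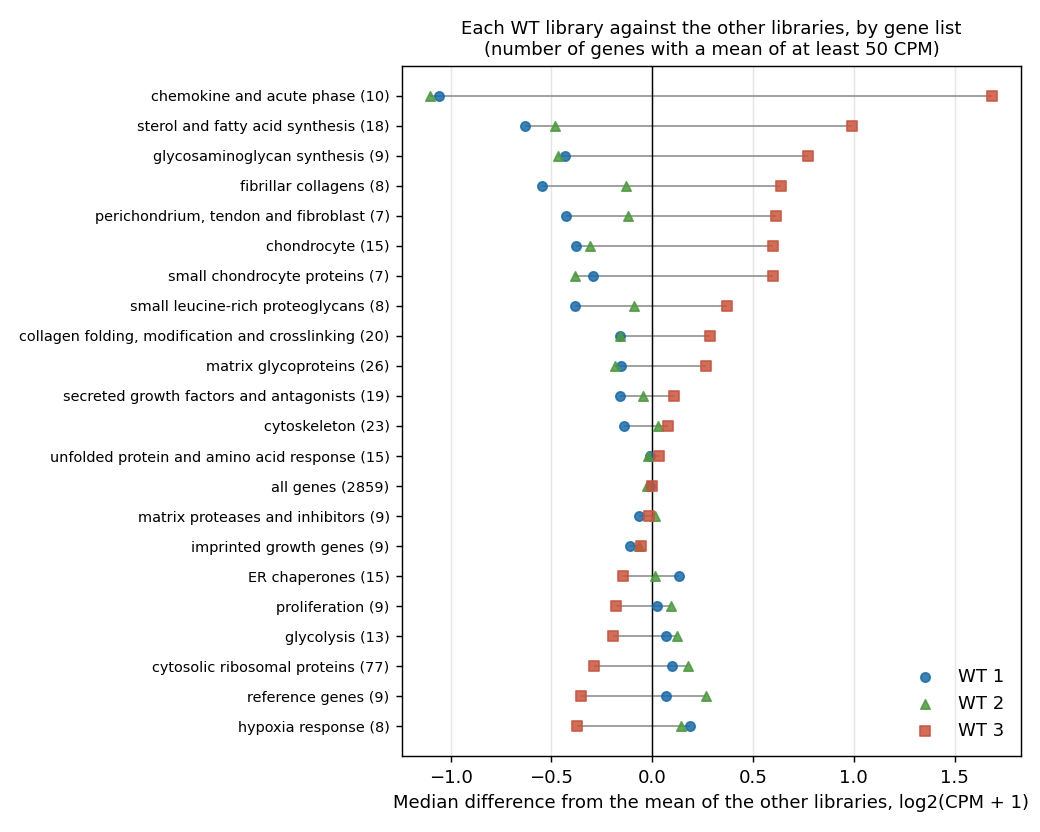
Median difference of each WT library from the mean of the others, on the scale of log2(CPM + 1), for gene lists with at least 7 genes past 50 CPM, for ribosomal proteins and for all genes, with the number of genes in brackets. WT 3 ranges from 1.69 for chemokine and acute phase genes to -0.37 for genes of the hypoxia response, while all genes stand at 0.00. The lists of chemokine, of sterol and of unfolded protein genes were made after values were seen, and 7 of the chemokine and acute phase genes passed 50 CPM through WT 3 alone.

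The genes with the lowest ratios were picked as extremes of 2859 genes. Asah1, acid ceramidase, stood at 279.8, 281 and 279.6 CPM, Psma1, a proteasome subunit, at 339, 336 and 335 CPM, and Cdk4, a kinase of the cell cycle, at 687, 684 and 674 CPM. Their coefficients of variation, 0.355%, 0.599% and 1.0%, lay below the 5.24%, 4.78% and 3.36% that counting error alone gives at their depth, and give no estimate of the error. The proteasome as a class had a median ratio of 1.21 and nuclear oxidative phosphorylation one of 1.17, both under the 1.29 of all genes, whereas collagens stood at 1.57 and small chondrocyte proteins at 1.73.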

How the data were processed

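Stranded poly(A) libraries of growth plate cartilage were sequenced on an Illumina instrument, and only the 3 columns of the libraries labelled WT were used, matched through genotype and replicate in the labels. The table deposited by the authors gives CPM per gene and library. The submitters' processing notes name cutadapt 2.5, HISAT2 and featureCounts 1.6.3, whereas the genome build, the annotation and the treatment of reads that map to several genes are not given in the sources used here. All values (100%, tolerance 0.01 reads) were whole multiples of 1 read, so that reads were recovered from CPM.

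Of 15803 identifiers, 15212 matched GENCODE M21 (GRCm38), which gave names, positions and exon-union lengths for TPM. Genes without a length have no TPM. Dates stood in place of 22 symbols, which were restored through the identifiers. Variation was described by the ratio of highest to lowest CPM where the mean reached 50 CPM, with no p-value, and by the dispersion of edgeR 4.0.16 (R 4.3.3) with an intercept only. The chi-square test on recovered reads, adjusted by Benjamini-Hochberg, was an alternative. The scripts (Python 3.11.15, scipy 1.17.1) were tested on simulated counts. Differences from the other libraries use a pseudocount of 1 CPM. Each gene was placed in 1 class.

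Named genes were the 25 with the most reads, the 25 of highest TPM, the 20 matrix genes of highest TPM, the 15 of highest ratio, and members of the lists of cell types, zones, transcription factors, growth factors, receptors, reference genes and sex. Any other gene named, and 3 lists (sterol and fatty acid synthesis, chemokine and acute phase, unfolded protein and amino acid response), were chosen after values were seen, and all members and lists were chosen with earlier results of these data known. Amino acid composition was not analysed here. Wilson intervals and floors cover counting error only.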

Additional observations from a re-analysis of the deposited data

How the results depend on the processing

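The number of genes with a ratio of at least 2 between WT libraries (202) followed its thresholds: 1029 with a floor of 10 CPM, 88 with a floor of 100 CPM, 4215 with no filter and a pseudocount of 1 CPM, 668 at a ratio of 1.5 and 44 at a ratio of 3. It was 187 with TMM scaling, 191 with RLE scaling (WT 3 highest for 102), 190 with a pseudocount of 1 CPM and 198 among named genes, an alternative chosen after seeing the data. With the chi-square test added it was 202, an outcome nearly fixed in advance by the ratio and the floor. Leaving out each library gave 3 to 166 genes, with 3 without WT 3, where the floor was set on WT 1 and WT 2 alone. The biological coefficient of variation ranged from 7.82% without WT 3 to 23.1% without WT 2, and was 21.6% over genes with at least 1 CPM. The share of ribosomal protein genes, 20.3% of reads, was 28.4% of TPM and 32.5% of TPM with the length of the principal transcript, chosen after seeing the data, and 19.5% to 21.8% without each library. The matrix share, 7.03% of reads, was 6.85% and 5.72% of TPM on those lengths and 6.16% to 7.56% without each library, lowest without WT 3. The number of genes that make up 50% of reads, 285, was 135 and 123 on those TPM scales and 270 to 293 without each library. Of the 20 matrix genes of highest TPM, 18 remained with the length of the longest transcript and 18 with that of the principal transcript. Depth limits statements on genes of a few reads. No paired analysis was possible because a single group was analysed.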

Other observations

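Genes of the interferon response, not described above, were present at low to moderate levels. Ifitm3, which restricts virus entry, stood at 391, 400.0 and 721 CPM in WT 1, WT 2 and WT 3 and Ifi27 at 224, 230.4 and 378 CPM, both highest in WT 3, and Isg15, a ubiquitin-like modifier, at 18.1, 13.5 and 38 CPM. Of the 3 genes past 50 CPM all were highest in WT 3 and none had a ratio of 2, beside 41.9% and 7.07% of all genes. A set of 3 genes is too small to tell from these shares. Immediate early genes were low, with Fos at 3, 3 and 2 reads, Jun at 2, 6 and 4 reads and Egr1 at 13, 7 and 0 reads, and Hspa1a, the inducible heat shock protein gene, had no read.

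Some genes of amino acid synthesis were well read. Asns, which makes asparagine, stood at 389.9, 413 and 411 CPM, Phgdh, the first enzyme of serine synthesis, at 315, 334 and 299 CPM, and Pycr1, which makes proline, at 245, 245 and 295 CPM. These belong to the list of unfolded protein and amino acid response genes, made after the values were seen, of which 2 of 15 past 50 CPM (13.3%, beside 7.07% of all genes) had a ratio of at least 2, and their median ratio was 1.23.

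The cytoskeleton was read chiefly through Tmsb10, which binds actin monomers, at 2365, 2706 and 2743 CPM, Myl6, a nonmuscle myosin light chain, at 1758, 1807 and 2042 CPM, and Tpm1, a tropomyosin, at 1249.6, 1236 and 1056 CPM. Vim, vimentin, stood at 60.9, 75 and 62.5 CPM. Actb, Tuba1a, Tuba1b and Tuba1c, whose levels are uncertain as described above, added little to this class. S100b, a calcium-binding protein of glia that chondrocytes also make, stood at 86.3, 92.3 and 136 CPM, whereas Sox10, a Schwann cell transcription factor, had 0, 0 and 1 reads.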
